A study of Rattus norvegicus with 24 samples.

Results

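Purinergic signalling was followed in kidneys of lithium-treated rats through 10 genes of its receptors and enzymes. They are P2ry1, P2ry2, P2rx4, P2rx7, Entpd1, Entpd3, Nt5e, Nt5c1a, Adora1 and Adora2b. Each was chosen by its gene symbol in the annotation of the array platform, and all 10 had 1 transcript cluster (the set of probes read as 1 gene), of 14324 genes with a symbol of their own.

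Expression was read on Affymetrix Rat Gene 1.0 ST arrays in 12 male Wistar rats, each of which gave 1 array of renal cortex and 1 of renal medulla, 24 arrays in all. Of these rats, 6 received lithium in the food (40 mmol/kg for the first 7 days and 60 mmol/kg afterwards) together with a salt block, over 6 months. The other 6 received a standard diet without lithium and served as controls. Water was freely available to both groups, and the age of the rats was not given in the sources used here. The tissue portions were cut from half-thawed frozen kidneys and are mixtures of cell types, so that fewer cells of a type and less RNA per cell cannot be told apart in any of the values that follow.

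ATP released by renal epithelial cells acts on G protein-coupled P2Y receptors and on P2X ion channels of the same and neighbouring cells. Ectonucleotidases on the cell surface then take ATP and ADP down to AMP and on to adenosine, which acts on its own receptors. In the collecting duct, P2Y2 signalling is known to counter the action of vasopressin on water transport, and resistance of the duct to vasopressin is the best known effect of lithium on the kidney.

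All values are log2 signal intensities, and a fold change is the lithium mean minus the control mean on that scale. Within a tissue, clusters that reached 6 on 4 or more of its 12 arrays were tested with limma, with the recovered scan group in the fit, and a gene was called at a Benjamini-Hochberg adjusted p under 0.05 over all clusters tested. The cortex array of lithium-treated animal 17 differed from the mean of the lithium cortex arrays, itself included, by at most 6.67e-05 and carried no measurement of its own, so lithium cortex has n = 5. Array medians lay between 5.75 and 5.83 in cortex and between 6.12 and 6.22 in medulla. Proximal tubule markers averaged 7.39 in lithium medulla and 8.03 in control medulla, against 10.91 in lithium cortex and 10.98 in control cortex, as the tissue labels have it. Principal cell markers of the collecting duct averaged 9.58 in lithium medulla and 9.61 in control medulla, and 7.61 in lithium cortex and 8.39 in control cortex, where all 7 had negative log2 fold changes and 4 were called lower. These were the water channel gene Aqp2 (log2 fold change -1.46 ± 0.19 SE, adjusted p = 0.00391), the sodium channel genes Scnn1g (-1.44, adjusted p = 0.0190) and Scnn1b (-0.87, adjusted p = 0.0443) and Hsd11b2 (-0.90, adjusted p = 0.0114). In medulla the similar means covered changes in both directions, with 3 of the 7 positive and 4 negative, between -0.655 and 1.3, and 0 called. Of the 3 podocyte markers tested in medulla, Podxl was called lower (-1.01, adjusted p = 0.0344), while Synpo (0.31) and Nphs1 (0.03) were positive and not called.

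Of the 10 genes, 1 was called in medulla and none in cortex. The cytosolic nucleotidase Nt5c1a was 2.73-fold higher in the medulla of lithium-treated rats. The ectonucleotidase Entpd1 was higher on every lithium medulla array than on any control medulla array, with a 1.78-fold difference that missed the threshold. The P2 receptors, Nt5e and the adenosine receptors were called in neither tissue.

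Of the 10 genes, 7 passed the filter on low values in each tissue, and they were the same 7. P2ry1, Entpd3 and Adora2b did not pass, and their values are given without a call. In cortex 79 of 13766 clusters were called (0.574%), and 0 of the 7 genes. None of the 7 reached an unadjusted p under 0.05 there, against 7.54% of all clusters, and the methods' t-test at its own threshold also took none. In medulla 190 of 16025 clusters were called (1.19%), and 1 of the 7 genes. An unadjusted p under 0.05 was reached in medulla by 2 of the 7 genes, against 19.6% of all clusters. The median log2 fold change of the 7 genes was 0.05 in cortex and 0.02 in medulla, against 0.01 and -0.01 over all clusters tested. The groups did not overlap for 354 clusters in cortex (2.57%) and none of the 7 genes, and for 595 clusters in medulla (3.71%) and 2 of the 7 genes, Nt5c1a and Entpd1.

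**Figure D1:**
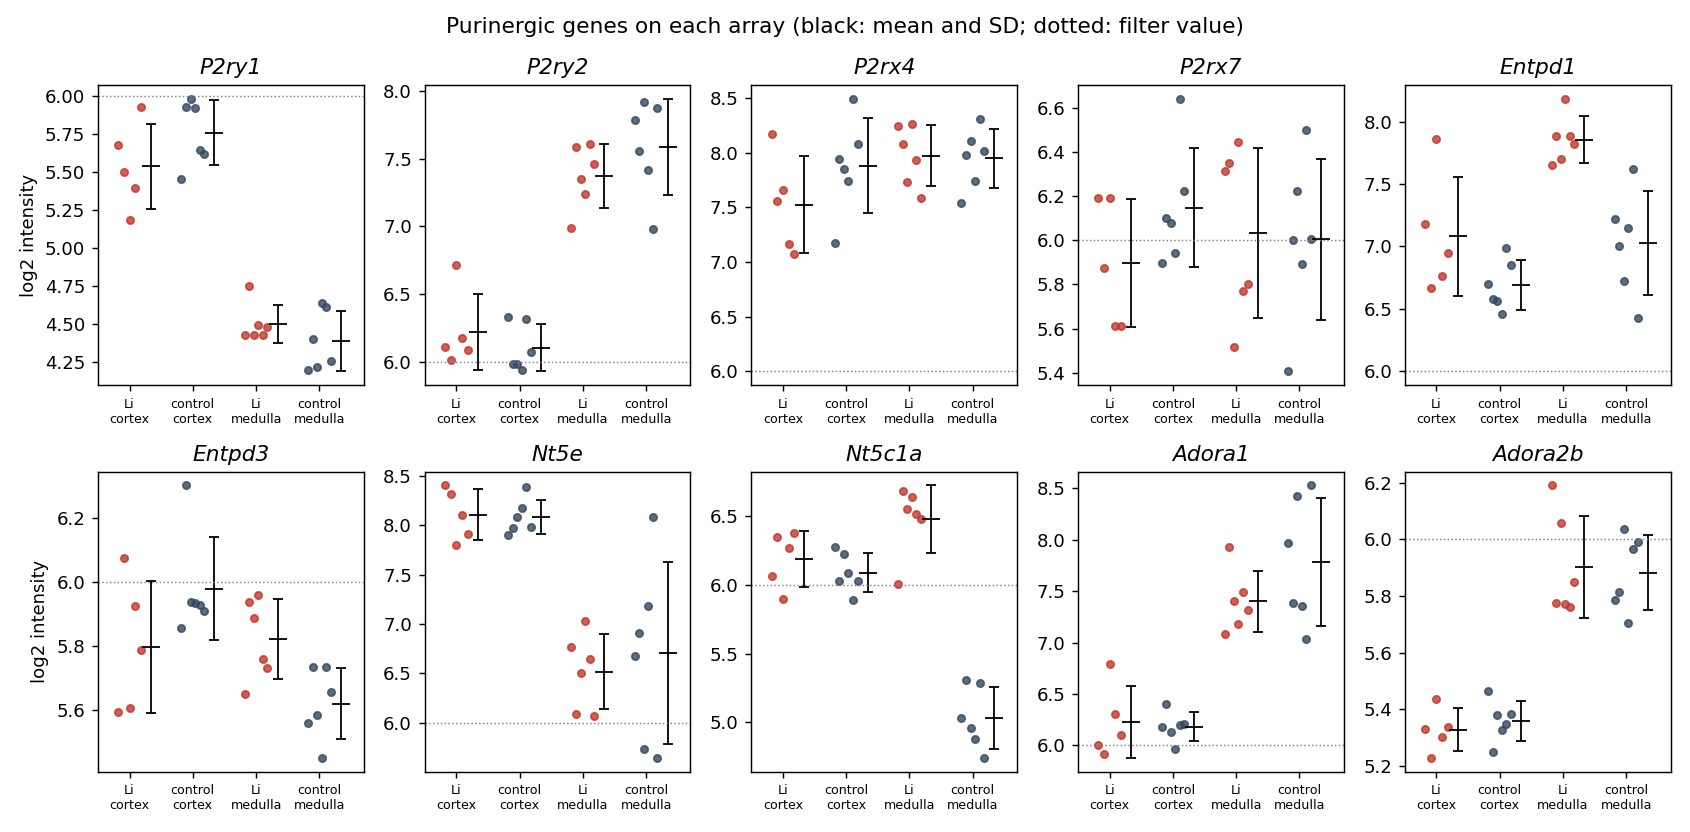
Log2 signal intensity of the 10 genes on each array, by group (lithium cortex n = 5, the other groups n = 6), with black bars for mean and SD and a dotted line at the filter value of 6. Only Nt5c1a and Entpd1 have lithium medulla arrays that all lie above the control medulla arrays.

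**Figure D2:**
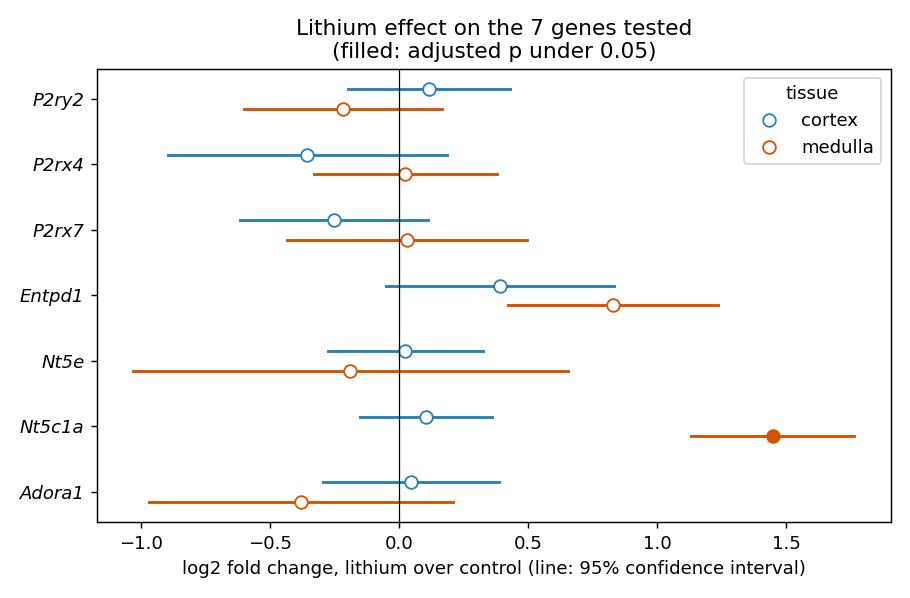
Log2 fold change of lithium over control for the 7 genes tested, in cortex (blue) and medulla (orange), with 95% confidence intervals. Nt5c1a in medulla (1.45) is the only filled point, and the interval of Entpd1 in medulla also lies above 0.

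Among the P2Y receptors, P2ry2 encodes the receptor for ATP and UTP. In medulla it lay between 6.99 and 7.61 with a median of 7.40 in lithium-treated rats, and between 6.98 and 7.92 with a median of 7.67 in controls. The control range enclosed the lithium range, and the log2 fold change was -0.22 ± 0.18 SE (95% interval -0.60 to 0.17, adjusted p = 0.517). In cortex it lay between 6.01 and 6.71 with a median of 6.11 in lithium-treated rats, and between 5.94 and 6.33 with a median of 6.03 in controls. The log2 fold change there was 0.12 ± 0.14 SE (95% interval -0.20 to 0.43, adjusted p = 0.883), and without animal 19, which had the highest value, it was -0.03.

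P2ry1, the receptor for ADP, was below 6 on every array. It lay between 5.19 and 5.93 in lithium cortex and between 5.45 and 5.99 in control cortex, with values down to 4.43 in lithium medulla and 4.20 in control medulla. In a fit without the filter its log2 fold change was -0.22 ± 0.15 SE in cortex and 0.11 ± 0.11 SE in medulla (adjusted p = 0.821 and 0.683).

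P2rx4 and P2rx7 encode ATP-gated cation channels, of which P2X7 is known for its part in inflammasome activation in macrophages. The genes are neighbours on rat chromosome 12 in the RefSeq annotation, where the only gene between them is a ribosomal protein pseudogene. Neither was called. P2rx4 lay between 7.07 and 8.17 with a median of 7.56 in lithium cortex, against between 7.17 and 8.50 with a median of 7.90 in control cortex, a log2 fold change of -0.36 ± 0.25 SE (95% interval -0.90 to 0.18, adjusted p = 0.793). It was -0.68 without lithium-treated animal 6, -0.23 without lithium-treated animal 22 and -0.18 without control animal 29. Animal 6 was the only lithium array of its scan group in cortex. A cortex fit without it therefore loses that whole scan group from the diet comparison, for this and any other gene. In medulla P2rx4 lay between 7.59 and 8.27 with a median of 8.01 in lithium-treated rats, against between 7.55 and 8.31 with a median of 8.0 in controls. P2rx7 lay between 5.61 and 6.19 with a median of 5.87 in lithium cortex, against between 5.90 and 6.64 with a median of 6.09 in control cortex, a log2 fold change of -0.25 ± 0.17 SE (95% interval -0.62 to 0.11, adjusted p = 0.780), which was -0.40 without lithium-treated animal 6 and -0.11 without control animal 29. In medulla it lay between 5.52 and 6.44 in lithium-treated rats and between 5.41 and 6.5 in controls. The medulla differences were 0.02 ± 0.16 SE for P2rx4 and 0.03 ± 0.21 SE for P2rx7 (95% intervals -0.33 to 0.38 and -0.44 to 0.49), and each turned to -0.03 when every array was centred on its median.

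The lithium difference of both channels changed sign between scan groups, the sets of arrays scanned together. This was not particular to them. P2ry2 and Nt5e also changed sign in both tissues, P2ry1, Entpd1, Nt5c1a and Adora1 in cortex, and Adora2b in medulla. Only Entpd3 kept 1 sign within each tissue. In cortex P2rx4 differed by 0.61, -0.19 and -1.17 in the 3 scan groups that held both diets, and P2rx7 by 0.19, 0.02 and -0.82. In medulla P2rx4 differed by 0.40, 0.07 and -0.40 and P2rx7 by 0.63, -0.08 and -0.47.

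Cortex and medulla of an animal tended to deviate alike in both channels. Expressed as deviations from the mean of the diet and tissue, P2rx4 was 0.65 above the mean in the cortex of lithium-treated animal 6 and 0.27 above it in its medulla, and in control animal 29 it was 0.61 and 0.36 above. In control animal 1 it was -0.71 from the mean in cortex and -0.41 in medulla, and in lithium-treated animal 22 -0.45 and -0.39. Over the 11 animals with values of their own in both tissues, the cortex and medulla deviations of P2rx4 had a Pearson r of 0.84 (permutation p = 0.00113, adjusted 0.00829) and a Spearman rho of 0.84 (permutation p = 0.00218, adjusted 0.0160), and without animals 1 and 6, the farthest from the median in cortex, r was 0.76 (exact permutation p = 0.0155). For P2rx7, r was 0.80 (permutation p = 0.00351, adjusted 0.0154) and rho 0.78 (permutation p = 0.00626, adjusted 0.0275). Without animals 19 and 29 the r of P2rx7 was 0.62 (exact permutation p = 0.0764), which no longer passed at this smaller number. For the other 8 genes r lay between -0.22 and 0.38, and none of their adjusted p-values was under 0.05.

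P2rx4 and P2rx7 also varied with each other. In cortex r was 0.90 (n = 11, permutation p = 0.00014, adjusted 0.00154) and rho 0.91 (permutation p = 0.00029, adjusted 0.00319), and without animals 1 and 6 r was 0.93. In medulla r was 0.91 (n = 12, permutation p = 6e-05, adjusted 0.00132) and rho 0.94 (permutation p = 2e-05, adjusted 0.00044), and without animals 1 and 22 r was 0.92. These permutation tests were two-sided with 100000 resamples, exact where 9 animals remained, and p-values were adjusted over the 22 relations computed. The pair was singled out after its values were seen. Subtracting the diet means, and the removal of scan date before deposit, leave fewer independent values than animals, so the p-values are too small. Both tissues of an animal fell in the same scan group, animal 17 aside. Variation by animal therefore cannot be told apart from a diet difference that varied by scan group. A scan group held at most 4 animals, too few for a correlation within it.

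**Figure D3:**
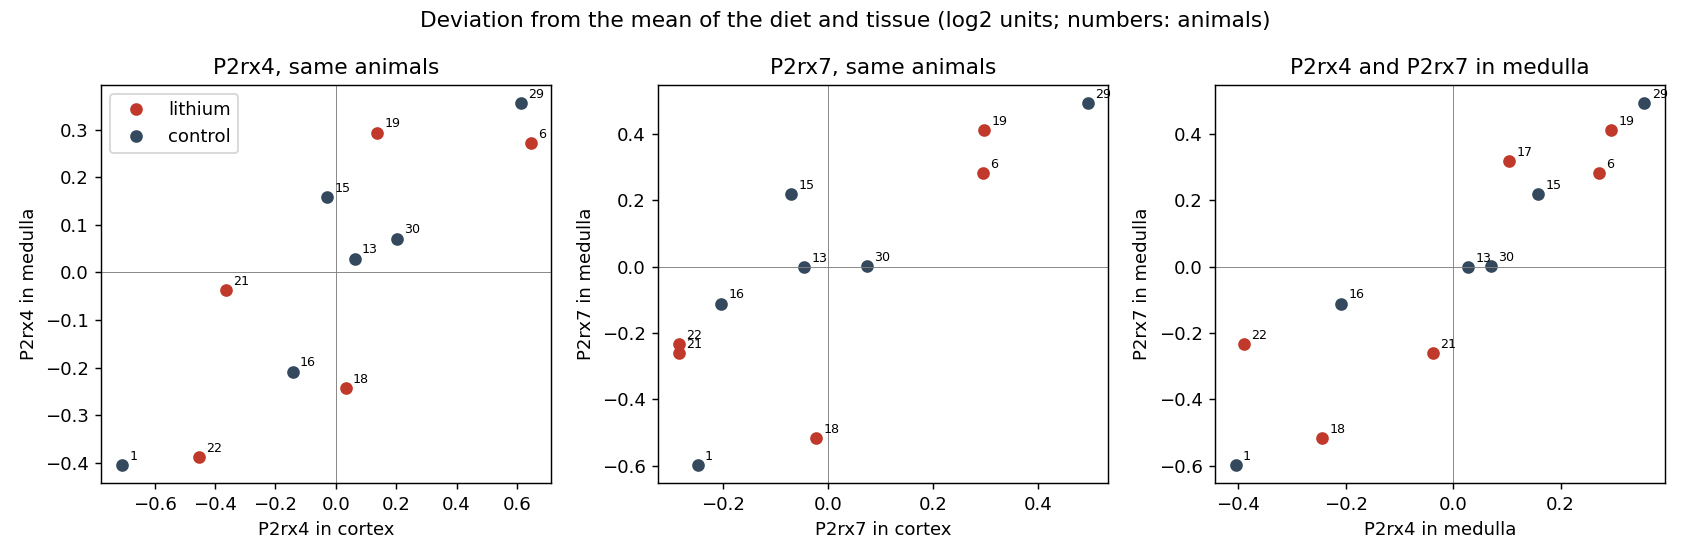
Deviation of each animal from the mean of its diet and tissue in log2 units, for P2rx4 in cortex (x) and medulla (y), for P2rx7 in cortex (x) and medulla (y), and for P2rx4 (x) and P2rx7 (y) in medulla. Points are animals by number, and the deviations rise together in each panel (r = 0.84, 0.80 and 0.91).

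The 250 bases before the start of each of these neighbours are shown because the levels of the pair varied together in both tissues. They come from RefSeq (GRCr8), at chr12:39523090-39523339 for P2rx4 and chr12:39594923-39595172 for P2rx7, both on the minus strand and read 5′ to 3′. Capitals mark the GC box letters GGGCGG, searched on both strands together with the TATA box letters TATAAA and the CCAAT box letters CCAAT, with no overlaps among the matches.
P2rx4: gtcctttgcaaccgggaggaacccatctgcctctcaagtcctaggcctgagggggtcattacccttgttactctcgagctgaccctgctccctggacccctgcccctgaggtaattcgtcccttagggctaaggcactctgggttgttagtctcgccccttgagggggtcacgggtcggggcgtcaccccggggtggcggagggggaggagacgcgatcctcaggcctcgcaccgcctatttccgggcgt
P2rx7: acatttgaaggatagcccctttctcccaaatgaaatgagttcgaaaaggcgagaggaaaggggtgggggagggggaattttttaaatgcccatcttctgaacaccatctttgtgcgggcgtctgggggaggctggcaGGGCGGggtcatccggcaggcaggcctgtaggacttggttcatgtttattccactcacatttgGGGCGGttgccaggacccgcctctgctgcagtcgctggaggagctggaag
P2rx7 held the GC box letters 2 times and P2rx4 held none of the 3 motifs. Of 33469 windows of the same length before rat gene starts, 30.5% held the GC box letters, 12.9% the TATA box letters and 34% the CCAAT box letters. The bases G and C made up 64.0% of the P2rx4 window and 56.0% of the P2rx7 window. A match of letters is not a binding site, and the absence of one says nothing about a factor.

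Entpd1 encodes CD39, the surface enzyme that takes ATP and ADP to AMP and is found on endothelium and leukocytes. In medulla it measured 7.65, 7.88, 7.70, 8.18, 7.89 and 7.82 in lithium-treated animals 6, 17, 18, 19, 21 and 22. In the control animals 1, 13, 15, 16, 29 and 30 it measured 7.22, 7.01, 6.73, 7.15, 7.62 and 6.43. The groups did not overlap, although control animal 29 lay only just below the lowest lithium-treated animal. The log2 fold change was 0.83 ± 0.19 SE (95% interval 0.42 to 1.24), and its adjusted p of 0.0570 missed the threshold. The difference was 0.65, 1.01 and 0.83 within the 3 scan groups of medulla. It passed the threshold with quantile normalization repeated (adjusted p = 0.0482), and when lithium-treated animal 6 or control animal 29 was left out (adjusted p = 0.0328 and 0.0182). Without scan group in the fit it passed as well (adjusted p = 0.0167). That fit counts degrees of freedom that the removal of scan date had used up, so its p-values are too small. Over all alternatives the adjusted p lay between 0.0167 and 0.145.

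In cortex Entpd1 lay between 6.66 and 7.86 with a median of 6.94 in lithium-treated rats, and between 6.46 and 6.99 with a median of 6.64 in controls. The groups overlapped, and the log2 fold change was 0.39 ± 0.20 SE (95% interval -0.05 to 0.83, adjusted p = 0.71), or 0.17 without animal 19, the highest. The lithium effect in medulla exceeded that in cortex by 0.44 ± 0.29 SE, which was not called (adjusted p = 0.541). The genes whose deviations from the control mean were closest to those of Entpd1 over the 11 cortex arrays were Pdpn, Fbxo32 and Ifitm3, with mean absolute differences of 0.08 in log2 units for each, out of 8295 genes compared. Their log2 fold changes in cortex were 0.41, 0.36 and 0.35, none of them called (adjusted p = 0.603, 0.604 and 0.754). They were picked for closeness on these same arrays, so changes of similar size follow from the choice.

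Macrophage and endothelial markers, from cells known to carry CD39, were read beside Entpd1 in medulla. The mean of 8 macrophage markers lay between 7.05 and 7.57 in lithium-treated rats and between 5.90 and 7.08 in controls, and 2 of the 6 tested were called higher, Cd68 (log2 fold change 1.06) and C1qa (0.95). The mean of 4 endothelial markers lay between 8.14 and 8.66 in lithium-treated rats and between 8.6 and 9.07 in controls, and 1 of the 4 was called, Emcn, at -0.91. The mean of 6 T cell markers lay between 5.71 and 6.41 in lithium-treated rats and between 5.45 and 5.85 in controls, and 1 of the 3 tested was called, Cd3e, at 0.68 (adjusted p = 0.0411). In cortex, animal 19 had the highest Entpd1 of the lithium arrays, and also their highest macrophage (7.59), fibroblast (8.96), smooth muscle (8.57) and T cell (5.98) means. Of the macrophage markers, 6 of 8 averaged at least 6 in every group. Of the 6 T cell markers, only 3 did so in lithium medulla and 1 in control medulla, so their mean rests largely on values under the filter. The part of these cells in the Entpd1 values was not tested.

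Entpd3, a related surface enzyme, lay close to the filter value. In medulla it lay between 5.65 and 5.96 in lithium-treated rats and between 5.45 and 5.73 in controls, with overlap. In a fit without the filter the log2 fold change was 0.20 ± 0.09 SE in medulla and -0.18 ± 0.12 SE in cortex (adjusted p = 0.335 and 0.821).

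Nt5e encodes CD73, the enzyme that forms adenosine from extracellular AMP. It differed little between the diets in cortex, where it lay between 7.80 and 8.40 with a median of 8.10 in lithium-treated rats and between 7.90 and 8.38 with a median of 8.03 in controls. The log2 fold change was 0.02 ± 0.14 SE (95% interval -0.28 to 0.32, adjusted p = 0.978). In medulla it lay between 6.07 and 7.03 in lithium-treated rats and between 5.64 and 8.08 in controls, which spread over more than the lithium range on both sides. The log2 fold change of -0.19 ± 0.39 SE had a wide 95% interval of -1.03 to 0.65 (adjusted p = 0.814), and it turned to 0.16 without control animal 29.

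Nt5c1a encodes a cytosolic nucleotidase that forms adenosine from AMP inside cells and is best known from skeletal and heart muscle. In medulla it measured 6.00, 6.68, 6.55, 6.64, 6.52 and 6.48 in lithium-treated animals 6, 17, 18, 19, 21 and 22. In the control animals 1, 13, 15, 16, 29 and 30 it measured 5.03, 5.31, 4.96, 4.87, 5.28 and 4.74. Every lithium array was above every control array, and the lowest lithium array, that of animal 6, stood apart from the other 5. The log2 fold change was 1.45 ± 0.14 SE (95% interval 1.13 to 1.76, adjusted p = 0.00154). All 6 lithium arrays and 0 of 6 control arrays reached 6, so Nt5c1a entered the test only through the lithium arrays and had to differ to be tested. It was also called in a fit without that filter, and with at least 6 required on all 12 arrays it was not tested. No detection call was used, so whether the control level was above background is not known and the fold change may be understated.

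**Figure D4:**
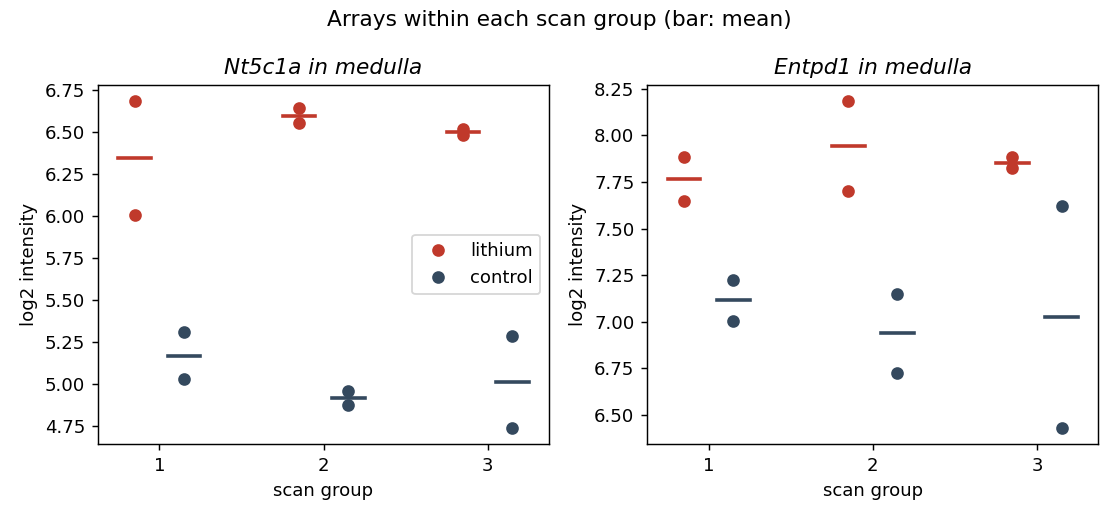
Log2 signal intensity of Nt5c1a and Entpd1 in medulla by scan group, with points for arrays and bars for means, lithium left of control. In each of the 3 scan groups both lithium arrays lie above both control arrays, with mean differences of 1.18, 1.68 and 1.49 for Nt5c1a and 0.65, 1.01 and 0.83 for Entpd1.

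The Nt5c1a difference was 1.18, 1.68 and 1.49 within the 3 scan groups of medulla. Without any 1 animal the log2 fold change lay between 1.38 and 1.57, and the adjusted p over all alternatives lay between 9.97e-05 and 0.0322. In cortex it lay between 5.90 and 6.38 in lithium-treated rats and between 5.89 and 6.28 in controls, with a log2 fold change of 0.10 ± 0.12 SE (95% interval -0.15 to 0.36, adjusted p = 0.877). The lithium effect in medulla exceeded that in cortex by 1.35 ± 0.19 SE (adjusted p = 0.00404), 1 of 15 clusters called among 16388 (0.0915%). With animal as a block in that fit the difference was 1.29 ± 0.20 SE and its adjusted p was 0.0816, so that the call was lost.

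The genes whose deviations from the control mean were closest to those of Nt5c1a over the 12 medulla arrays, of 9446 compared, were Atp2b4 (mean absolute difference 0.14 in log2 units), Guca2b (0.21) and Dpep3 (0.23). Atp2b4 encodes a plasma membrane calcium pump, Guca2b the peptide uroguanylin and Dpep3 a membrane dipeptidase. Their log2 fold changes in medulla were 1.46, 1.53 and 1.10 (adjusted p = 0.00265, 0.0117 and 0.0332). They were picked for closeness to Nt5c1a on these same arrays, so changes of similar size follow from the choice and are no separate result. Beside these values, the mean of 7 intercalated cell markers, genes of the collecting duct cells that move acid and base, lay between 8.63 and 9.37 in lithium medulla and between 6.15 and 8.43 in control medulla. Of the 6 tested, 2 were called higher, Slc4a9 (log2 fold change 1.99) and Atp6v1g3 (1.10). All 7 averaged at least 6 in lithium medulla and 6 of 7 in control medulla, and the part of these cells in the Nt5c1a values was not tested. The mean of 3 smooth muscle markers also did not overlap, between 6.75 and 6.95 in lithium medulla and between 6.49 and 6.63 in control medulla, with neither of the 2 tested called (Tagln 0.80, adjusted p = 0.0751, and Myh11 0.01), and its part was not tested.

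Adora1 encodes the A1 receptor, known in the kidney for its part in tubuloglomerular feedback. In medulla it lay between 7.09 and 7.93 with a median of 7.36 in lithium-treated rats, and between 7.03 and 8.53 with a median of 7.68 in controls. The groups overlapped, and the log2 fold change was -0.38 ± 0.27 SE (95% interval -0.97 to 0.21, adjusted p = 0.458). Within the 3 scan groups it was -0.17, -0.60 and -0.38. In cortex the log2 fold change was 0.05 ± 0.16 SE (95% interval -0.29 to 0.39, adjusted p = 0.963). Adora2b, the gene of the low-affinity A2B receptor, lay between 5.23 and 5.44 in lithium cortex and between 5.25 and 5.46 in control cortex, and reached 6 on 2 of 6 lithium and 1 of 6 control medulla arrays. Its log2 fold change in a fit without the filter was -0.03 ± 0.08 SE in cortex and 0.02 ± 0.11 SE in medulla.

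The wide spread of Nt5e, Adora1 and P2ry2 among medulla arrays stood beside that of several marker lists, of which the proximal tubule list was used for correlations. Control animal 29 had the highest proximal tubule mean of the medulla arrays (8.76) with Nt5e at 8.08, Adora1 at 7.03 and P2ry2 at 6.98, while control animal 30 had a mean of 7.60 with Nt5e at 5.64, Adora1 at 8.53 and P2ry2 at 7.87. Over the 12 animals, as deviations from the diet means, r with the marker mean was 0.74 for Nt5e (rho 0.78), -0.77 for P2ry2 (rho -0.67) and -0.70 for Adora1 (rho -0.65). Their permutation p-values for r were 0.00447, 0.00278 and 0.0135 (adjusted 0.0164, 0.0153 and 0.0426), and for rho 0.00434, 0.02 and 0.0259 (adjusted 0.0239, 0.0732 and 0.0813). These p-values too are too small, as diet means were subtracted and scan date had been removed before deposit. Without animals 6 and 29, r was 0.58, -0.45 and -0.51 (permutation p = 0.0842, 0.188 and 0.132), in the same directions but no longer past the threshold at this smaller number. For the other 7 genes r lay between -0.03 and 0.37, with no adjusted p under 0.05. The marker mean itself lay between 6.90 and 7.88 in lithium medulla and between 7.60 and 8.76 in control medulla, and its part in the diet differences was not tested. The mean of 5 markers of the thick ascending limb and distal tubule varied more, between 6.67 and 10.31 in lithium medulla and between 8.03 and 10.89 in control medulla. It was 8.03 in control animal 30 and 9.10 in control animal 15, where Adora1 was 8.53 and 8.43 and Nt5e 5.64 and 5.73. It was 6.67 in lithium-treated animal 17, where Adora1 was 7.93. Lithium-treated animal 18 did not go the same way, with a low limb and distal tubule mean of 7.85 and Adora1 at 7.41. Its Adora1 and Nt5e deviated from the lithium medulla means by only 0.01 and -0.01. Intercalated cell markers were also lowest in control animals 30 (6.15) and 15 (6.75). The part of these cells was not tested either.

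Levels in medulla and cortex were compared as values minus the array median, with no test. Scan date had been removed in each tissue separately. The share of all clusters without overlap between the tissues was not counted, so a lack of overlap here is a description and no result about these genes. Without lithium, P2ry2 stood 1.44 above the median in medulla and 0.32 in cortex, and Adora1 stood 1.64 above it in medulla and 0.39 in cortex, with no overlap of the arrays. Nt5e was the reverse, at 0.56 in medulla and 2.30 in cortex, and so was P2ry1, at -1.75 in medulla and -0.02 in cortex, again with no overlap. Entpd1 stood at 0.88 in medulla and 0.91 in cortex of controls and at 1.66 in medulla and 1.29 in cortex of lithium-treated rats, with ranges that overlapped under both diets. Nt5c1a was at 0.28 in medulla and 0.40 in cortex of lithium-treated rats, where the arrays overlapped, and at -1.11 in medulla and 0.30 in cortex of controls, where they did not. Every control medulla array was thus lower in Nt5c1a than every array of the other groups.

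Of 46 further genes of the purinergic pathway, 42 were named in the annotation, 27 were tested in cortex and 30 in medulla. None was called in cortex by limma, where 3 had an unadjusted p under 0.05, and 1 was called in medulla, where 9 did. Over all clusters tested, 0.574% were called in cortex and 1.19% in medulla, and 7.54% and 19.6% had an unadjusted p under 0.05. The median log2 fold change of these further genes was 0.03 in cortex and 0.00 in medulla. The called gene was Slc28a3, the gene of a sodium-coupled nucleoside transporter, which lay between 5.75 and 6.64 in lithium medulla and between 4.78 and 5.63 in control medulla without overlap (log2 fold change 0.88 ± 0.18 SE, adjusted p = 0.0411). It reached 6 on 5 of 6 lithium and 0 of 6 control arrays, so it too was tested only through the lithium arrays. The call was lost without the filter (adjusted p = 0.0522), in the methods' t-test (adjusted p = 0.118) and without any single animal other than animal 6 (adjusted p between 0.0522 and 0.113).

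Of the 5 other P2Y receptors, 4 were tested in medulla and none was called. Their log2 fold changes lay between 0.54 and 1.39, but P2ry4, P2ry12 and P2ry13 reached 6 on 5, 4 and 6 lithium arrays, against 2, 1 and 3 control arrays, so their control arrays alone would not have passed the filter and their positive sign is in part set by it. P2ry6, which did not pass the filter, was at 0.34 in a fit without it (adjusted p = 0.326). P2ry4, P2ry6 and P2ry12 were named after their values were seen. P2ry13, a receptor for ADP, lay between 6.31 and 7.51 in lithium medulla and between 5.77 and 6.28 in control medulla without overlap (log2 fold change 0.82 ± 0.19 SE, adjusted p = 0.0618). In cortex its log2 fold change was 0.64 ± 0.28 SE (adjusted p = 0.631), or 0.31 without lithium-treated animal 19. P2ry14, the receptor for UDP-glucose that is known from intercalated cells in mice, lay between 6.49 and 8.36 in lithium medulla and between 4.50 and 7.14 in control medulla. The arrays overlapped, and the log2 fold change was 1.39 ± 0.51 SE (adjusted p = 0.164). The macrophage and intercalated cell marker means given above moved in the same direction on these arrays, and their part was not tested.

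In the remaining lists the largest differences were not called. Among the 5 other P2X receptors, P2rx3 was the only one tested, in medulla, at -0.05. Adora2a, of another adenosine receptor, was at -0.38 in medulla (adjusted p = 0.355). Among genes of ATP release, the channel gene Calhm2 had log2 fold changes of 0.36 in cortex and 0.39 in medulla (adjusted p = 0.516 and 0.122). Among the other ectonucleotidases, Alpl, of tissue-nonspecific alkaline phosphatase, was at 0.23 in cortex and Entpd5 at -0.58 in medulla (adjusted p = 0.712 and 0.222). Among intracellular enzymes, Ada, of adenosine deaminase, was at -0.20 in cortex and the nucleotidase gene Nt5c3a at -0.55 in medulla (adjusted p = 0.705 and 0.126). Slc28a2, of another sodium-coupled nucleoside transporter, was at 0.26 in cortex (adjusted p = 0.758). It was 0.05 without lithium-treated animal 6, a fit that also loses the scan group of that animal from the diet comparison.

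**Figure D5:**
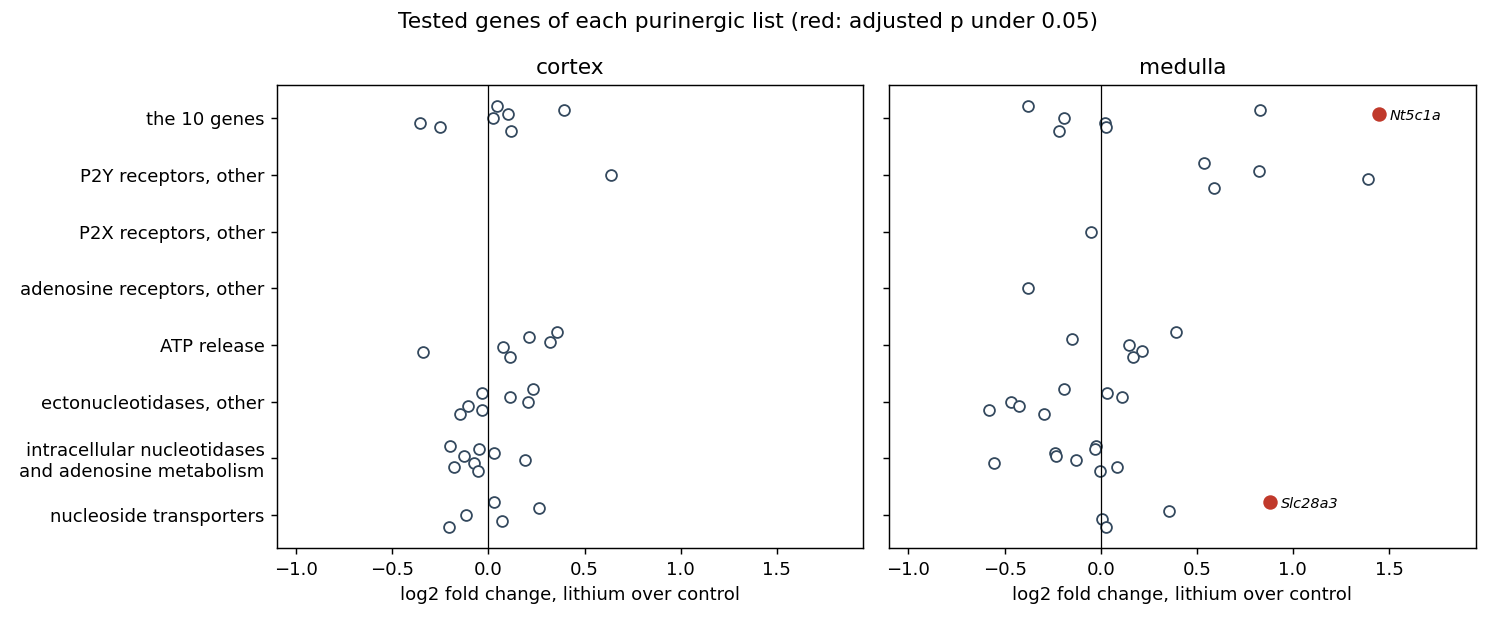
Log2 fold change of lithium over control (x) for every tested gene of each purinergic list (rows), in cortex and medulla, with red points for genes called at an adjusted p under 0.05. The red points are Nt5c1a (1.45) and Slc28a3 (0.88), both in medulla.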

How the data were processed

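The deposited values were log2 signal intensities of 28894 transcript clusters on 24 Affymetrix Rat Gene 1.0 ST arrays. The authors made them in Partek Genomics Suite from RMA background-corrected and quantile-normalized probes, summarised on the log2 scale by median polish, removed scan date by analysis of variance in each tissue, and averaged probe sets into clusters. RMA, Partek and rn4 are also named in the processing notes of the submitters. Scanner files were not used here. Arrays carry no read depth, so the number of arrays limits the precision.

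The 10 genes, the other lists and the rule for naming genes were chosen with earlier results of these data known. Named were all 10 genes, the called gene and the gene with the largest change of each other list and tissue, called marker genes (up to 4 a list), and the 3 genes with the closest profile to the member that changed most. Symbols came from the platform annotation: 15097 clusters had 1 symbol, 323 several and 13474 none. Where a gene had several clusters, the one with the highest mean over 24 arrays was used. In the RefSeq annotation of GRCr8, P2ry2, P2rx4, Nt5e and Adora1 each overlap another protein-coding gene, and whether the probes tell them apart was not tested.

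Scan groups were recovered from directions without residual variance, which scan date removal leaves, and this step was tested on simulated data. They are animals 1, 6, 13 and 17, animals 15, 16, 18 and 19, and animals 21, 22, 29 and 30, except that in cortex animal 17 stood alone, so its array had no value of its own. The dates themselves were not known. Lithium and control arrays of a tissue were compared by limma 3.58.1 in R 4.3.3 (lmFit and eBayes, scan group in the fit, 7 residual degrees of freedom in cortex and 8 in medulla), over clusters that reached 6 on 4 or more of 12 arrays, with Benjamini-Hochberg adjustment at 0.05. The tissue difference was an interaction over all 24 arrays. The fits were tested on simulated data. The rats are separate animals, and each gave both tissues under 1 number. Over 11 animals the correlation of their deviations between tissues was between -0.09 and 0.44, over 0.1 in 6, and 2 correlated best with their own number. The tables and figures were made with pandas 2.3.3, numpy 2.4.6 and matplotlib 3.10.9 in Python 3.11.15. Alternatives were the fit without scan group, other filters, centring, repeated quantile normalization, a variance trend, the study's 2-way analysis of variance on the same values (called the methods' t-test here, as its diet term compares 2 groups), an animal block and leaving out each animal.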

Additional observations from a re-analysis of the deposited data

Results flagged for a closer look

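Over 40 groups of 5 or 6 arrays (10 genes in 4 groups), 4 had 1 array apart from the rest of its group by Dixon's test, and chance alone would give about 1 in 20. In lithium medulla, Nt5c1a of animal 6 (6.00) lay below the next array (6.48), and P2ry1 of animal 17 (4.75) lay above the next (4.49). In lithium cortex, P2ry2 of animal 19 (6.71) lay above the next (6.17), and that array also had the highest macrophage (7.59), fibroblast (8.96), smooth muscle (8.57) and T cell (5.98) marker means of the lithium cortex arrays. In control cortex, Entpd3 of animal 13 (6.30) lay above the next (5.94).

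The lithium effect on Nt5c1a differed between the tissues by 1.35 (medulla minus cortex, on the log2 scale) in the interaction term of limma, and by 1.29 with animal as a block, where the call was lost.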

How the results depend on the processing

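The number of clusters called depended on the settings more than the values of the genes did. The fit without scan group counts degrees of freedom that the removal of scan date had used up, so its p-values are too small. In cortex, 79 clusters became 288 without scan group in the fit, 49 with at least 6 on all 12 arrays, 14 in the methods' t-test after adjustment, 143 at the methods' own threshold (p under 0.05 and fold over 1.5), and 34 to 92 when 1 animal was left out. In medulla, 190 became 1052, 37 in the methods' t-test and 558 at its own threshold, and 50 (without lithium-treated animal 21 or 22) to 1053 (without lithium-treated animal 6). After centring the arrays on their medians the medulla calls were 101 higher and 96 lower, against 133 and 57. For the tissue difference, 15 became 5 with animal as the replicate block, 357 without scan group, 9 with centring, and 5 to 57 when 1 animal was left out.

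Of the 10 genes, the number called in medulla was 2 without scan group, 2 with quantile normalization repeated, 2 at the methods' own threshold, 0 with at least 6 on all 12 arrays, and 1 to 2 when 1 animal was left out; Entpd1 was the gene added. For the tissue difference it was 0 with animal as the replicate block (Nt5c1a 1.29), a pairing that comes from the labels, and no other call on the 10 genes changed under it.

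Several small, uncalled differences changed sign. In cortex, Nt5e was -0.0041 with quantile normalization repeated, and without 1 animal it lay between -0.12 and 0.11, P2ry2 between -0.025 and 0.18 and Adora1 between -0.12 and 0.16. In medulla, P2rx4 was -0.031 with centring, and P2rx7 was -0.025 with centring and -0.032 with quantile normalization repeated. Without 1 animal, P2rx4 in medulla lay between -0.078 and 0.12, P2rx7 between -0.12 and 0.16, Nt5e between -0.45 and 0.16 and P2rx3 between -0.12 and 0.030, and the tissue difference of Nt5e lay between -0.46 and 0.046. The cause was not tested. In medulla, P2ry2 was -0.12 without lithium-treated animal 6, -0.13 without control animal 15 and -0.37 without control animal 29, Adora1 was -0.22 and -0.19 without control animals 15 and 30, Adora2a was -0.21 without control animal 15, and Entpd5 was -0.35 without control animal 29. In cortex Alpl was 0.14 without control animal 29. No gene of the 10 had a second cluster, and another background correction was not run without scanner files.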
